A study of Mus musculus with 6 samples.

Results

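The proteasome is the cell's main machine for breaking down proteins tagged with ubiquitin. Its 20S core is a barrel of alpha rings, which form the gate, and beta rings, of which the subunits Psmb5, Psmb6 and Psmb7 cut proteins. The 19S particle, made of ATPases (Psmc genes) and other subunits (Psmd genes), recognises and unfolds the substrates and feeds them into the core. Interferon replaces the cutting subunits by Psmb8, Psmb9 and Psmb10 to give the immunoproteasome, which makes peptides for MHC class I. Male germ cells replace the alpha subunit Psma7 by Psma8 and pair it with the activator PA200 (Psme4), in a form known as the spermatoproteasome, which is needed for meiosis.

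These genes were examined in whole testis from adult mice on a hybrid C57BL/6 x CBA background, 3 wild-type samples and 3 carrying a transgene for a constitutively active DREAM mutant, with 1 Affymetrix array each. DREAM (Kcnip3) is a calcium-binding protein that represses transcription from sites with a GTCA core. The promoter of the transgene, the number of founder lines and the exact age are not given in the sources used here. The list holds 42 genes by symbol, and 41 of them, with 87 probe sets, have at least 1 probe set that carries their name alone, among 18161 genes so measured. Each gene is represented by its probe set with the highest mean over all 6 arrays. The probe set for Psme2 also carries the name of a related gene copy, so Psme2 was not analysed here. Values are log2 intensities, so 1 unit is a 2-fold difference, and they carry no detection call. Probes differ in how strongly they bind, so readings are compared between arrays for 1 gene and not between genes.

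Wild type replicate 2 stood apart from the other arrays, at 42.2 on the first principal component (38.9% of the variance), where the other arrays lay between -23.3 and 5.27. Median intensity per array ran from 5.99 to 6.08. The 8 spermatid markers, which define an adult testis, averaged 12.94 to 12.99 in wild-type and 12.95 to 13.05 in transgenic arrays. Gapdh control probes read higher at the 3' than at the 5' end by 0.11 ± 0.05 in wild-type arrays and by 0.27 ± 0.06 in transgenic ones (log2, SD, n = 3). This gap, which widens as RNA breaks down, did not overlap between the genotypes. The same gap of the actin control probes, 0.47 ± 0.05 and 0.50 ± 0.03 (SD, n = 3), did overlap. The samples are bulk tissue, so fewer cells of a type and less RNA per cell cannot be told apart.

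None of the 41 proteasome genes passed the test between transgenic and wild-type testis, set at an adjusted p under 0.05 by limma with adjustment over all 45037 probe sets. Of all probe sets 0.444% passed, 0.171% as higher and 0.273% as lower, and with 1 probe set a gene 0.617% of genes passed. At an unadjusted p under 0.05 there was 1 gene, Psma8, against 7.49% of all genes. The 41 differences had a median of 0.03 on the log2 scale, beside 0.02 over all genes, and 39 of them lay within 0.15 of 0, as did 75.3% of all genes. For the 40 genes other than Psma8, every 95% interval included 0. Those intervals reached no lower than 0.756-fold (Psmb3) and no higher than 1.37-fold (Psmb9) of the wild-type intensity. Other fits of the same values gave 1 member passing, Psma8, with a trended and robust variance and also with array weights, and 0 under each of the other settings tried. Over the whole table these fits passed 306 and 4160 of the 45037 probe sets, beside 200 in the fit reported. The fit with array weights came with convergence warnings.

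**Figure D1:**
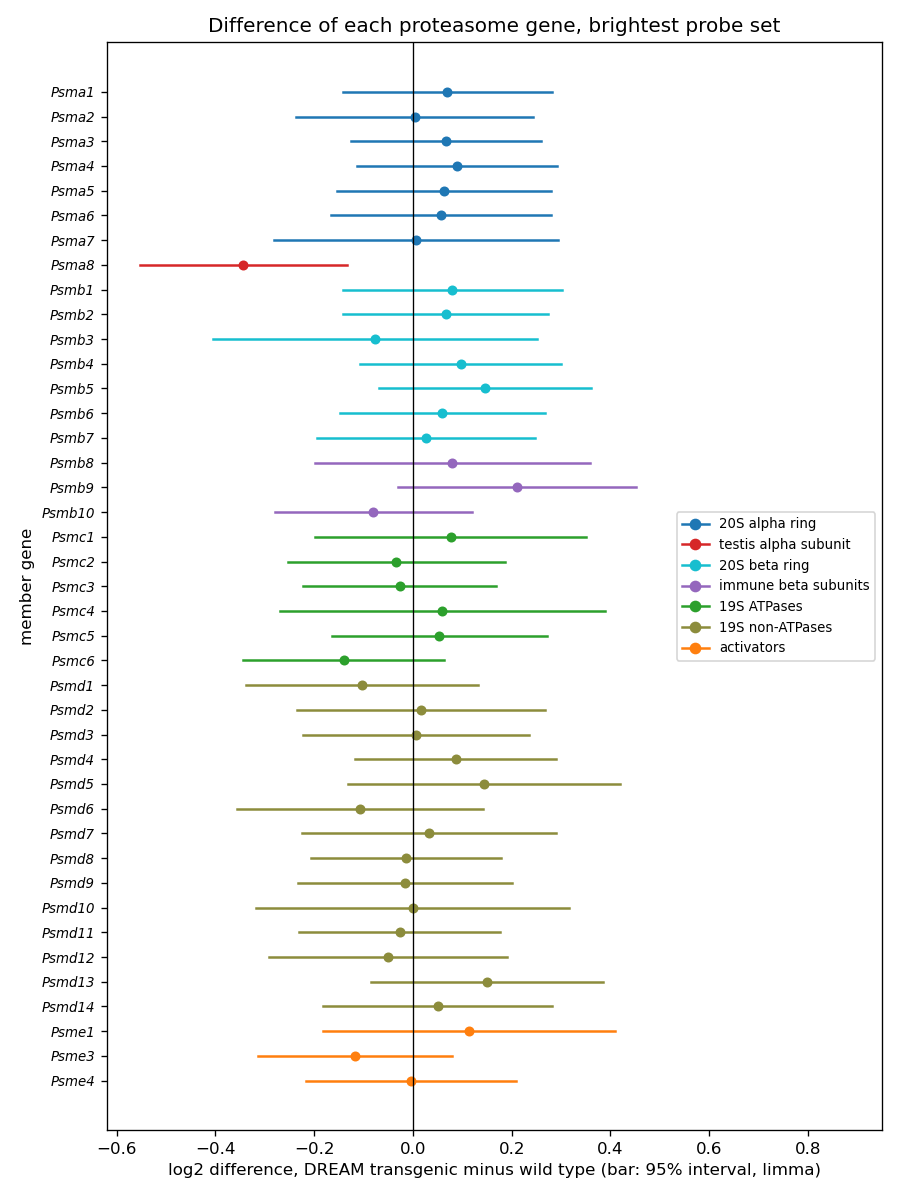
Log2 difference between DREAM transgenic and wild-type testis (x axis) for each of the 41 genes (y axis), with points for the limma estimate and bars for its 95% interval, coloured by role. Psma8 at -0.34 is the gene whose interval does not include 0, and none passed after adjustment.

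The testis-specific alpha subunit Psma8, encoded on chromosome 18, had the smallest p of the list. It read 11.17, 11.32 and 11.23 in the wild-type arrays and 10.99, 10.81 and 10.89 in the transgenic arrays. All 3 transgenic readings were below all 3 wild-type readings, a separation that 12.5% of all genes showed in either direction. The means were 11.24 ± 0.08 and 10.90 ± 0.09 (SD, n = 3), a log2 difference of -0.34 (SE 0.09, 95% interval -0.55 to -0.13), which is 0.788-fold in intensity. The unadjusted p was 0.00477, a value reached by 2.09% of all genes, and the adjusted p was 0.3 (limma). With a trended and robust variance the adjusted p was 0.0456, and with array weights, nearly all of which fell on wild type replicate 3, it was 0.0123. These were the 2 that passed of 14 alternatives, the Gapdh covariate apart, over which the adjusted p of Psma8 ran from 0.0123 to 0.803 (limma). It was 0.706 with the replicate number as a block and 0.788 without wild type replicate 3. Without wild type replicate 2 the difference was -0.30 (adjusted p = 0.246). Psma8 has 1 probe set on this array, so no second reading checks it.

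Psma8 is made in germ cells, so germ cell markers were read beside it. Of 8 markers of meiotic spermatocytes, 7 were below 0, with a median difference of -0.11. Their mean log2 reading ran from 9.98 to 10.10 in wild-type and from 9.85 to 9.97 in transgenic arrays. The gap was slight, since wild type replicate 1 was at 9.98 and transgenic replicate 1 at 9.974. For Sycp1 these arrays read 9.70 and 8.87. Taken singly, only Piwil1 had groups that did not overlap, a separation that 12.5% of all genes showed in either direction. None of the 8 passed, and the lowest was Sycp1, a component of the synaptonemal complex, at -0.41 (SE 0.14, limma adjusted p = 0.541). Ldhc, the germ cell lactate dehydrogenase, read 0.01. The 8 spermatid markers had a median difference of 0.0017 and the 6 spermatogonial markers of -0.0017. When the Gapdh end-to-end gap was added to the fit, a setting picked once the data had been examined, the Psma8 difference was -0.18 (limma adjusted p = 0.729). The Gapdh gap does not overlap between the genotypes, while the actin gap does, so RNA integrity and genotype cannot be fully told apart, and the part of germ cell content in the Psma8 reading was not tested.

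Psma7, the ubiquitous alpha subunit in whose place Psma8 sits, read 8.77, 9.27 and 9.11 in wild-type and 9.09, 9.05 and 9.03 in transgenic arrays. The transgenic readings lay inside the wild-type range, with a difference of 0.0067 (SE 0.13, 95% interval -0.28 to 0.29). Taken within each array, Psma8 minus Psma7 was 2.40, 2.05 and 2.12 in wild-type and 1.90, 1.76 and 1.86 in transgenic arrays, again without overlap. This within-array contrast was 0.35 lower in transgenic testis, from 2.19 ± 0.19 to 1.84 ± 0.07 (SD, n = 3). An exact two-sided permutation test gave p = 0.1, the smallest that 3 against 3 allows (0.5 adjusted over the 5 pairs compared). Without wild type replicate 1 the contrast differed by -0.245.

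**Figure D2:**
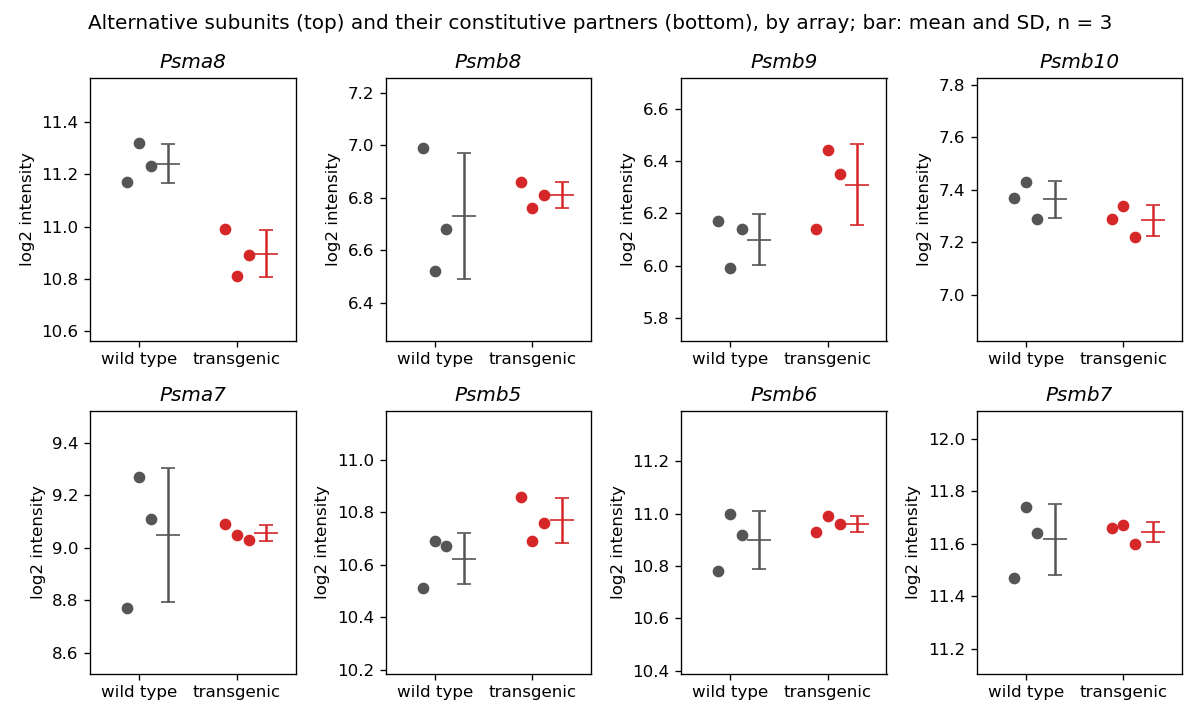
Log2 intensity (y axis, each panel 1 unit high) of the alternative subunits Psma8, Psmb8, Psmb9 and Psmb10 and of their constitutive partners Psma7, Psmb5, Psmb6 and Psmb7 in wild-type and transgenic arrays, as points, with mean and SD (n = 3) at the right of each group. The groups are apart for Psma8 and overlap in the other 7 panels.

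The immune subunits did not pass and had no common sign. Psmb8, which takes the place of Psmb5, read 6.99, 6.52 and 6.68 in wild-type and 6.86, 6.76 and 6.81 in transgenic arrays. The transgenic readings fell within the wild-type range, with a difference of 0.08 (SE 0.12, 95% interval -0.20 to 0.36). Its other, dimmer probe set gave 0.03. Without wild type replicate 2, in which Psmb8 was lowest, the difference was -0.03. The median of the 3 immune subunits, 0.08, was likewise below 0 without that array, at -0.025.

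Psmb9, which takes the place of Psmb6, read 6.17, 5.99 and 6.14 in wild-type and 6.14, 6.44 and 6.35 in transgenic arrays. Transgenic replicate 1 equalled wild type replicate 3, and transgenic replicates 2 and 3 were above every wild-type array. The difference of 0.21 (SE 0.11, 95% interval -0.03 to 0.45) had an unadjusted p of 0.0802 and an adjusted p of 0.803 (limma). Psmb10, which takes the place of Psmb7, read 7.37, 7.43 and 7.29 in wild-type and 7.29, 7.34 and 7.22 in transgenic arrays, a difference of -0.08 (SE 0.09, 95% interval -0.28 to 0.12) with overlapping groups.

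The cutting subunits that they replace overlapped between genotypes as well. Psmb5, the chymotrypsin-like subunit, read 10.51, 10.69 and 10.67 in wild-type and 10.86, 10.69 and 10.76 in transgenic arrays. Its difference of 0.15 (SE 0.10, 95% interval -0.07 to 0.36) was the highest in the beta ring. Psmb6, the caspase-like subunit, read 10.78, 11.00 and 10.92 and then 10.93, 10.99 and 10.96, with a difference of 0.06. Psmb7, the trypsin-like subunit, read 11.47, 11.74 and 11.64 and then 11.66, 11.67 and 11.60, with a difference of 0.03. In both, all transgenic readings lay within the wild-type range.

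Within arrays, the balance of immune and constitutive partners did not separate the genotypes. Psmb8 minus Psmb5 was -3.89 ± 0.34 in wild-type and -3.96 ± 0.04 in transgenic arrays (SD, n = 3), a difference of -0.07 (exact permutation p = 0.9). Psmb9 minus Psmb6 was -4.80 ± 0.20 and -4.65 ± 0.12, a difference of 0.15 (exact permutation p = 0.5). Psmb10 minus Psmb7 was -4.25 ± 0.13 and -4.36 ± 0.03, a difference of -0.11 (exact permutation p = 0.2). Adjusted over the 5 pairs, these became 0.9, 0.833 and 0.5. The sign of the first pair turned, to 0.12, without wild type replicate 1, and that pair was at -0.205 without replicate 2. Psmb9 minus Psmb6 differed by 0.045 without wild type replicate 2 and by 0.245 without replicate 1. Psmb10 minus Psmb7 differed by -0.03 without wild type replicate 1. Only the change of such a contrast between arrays can be read, since its level depends on the probes.

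**Figure D3:**
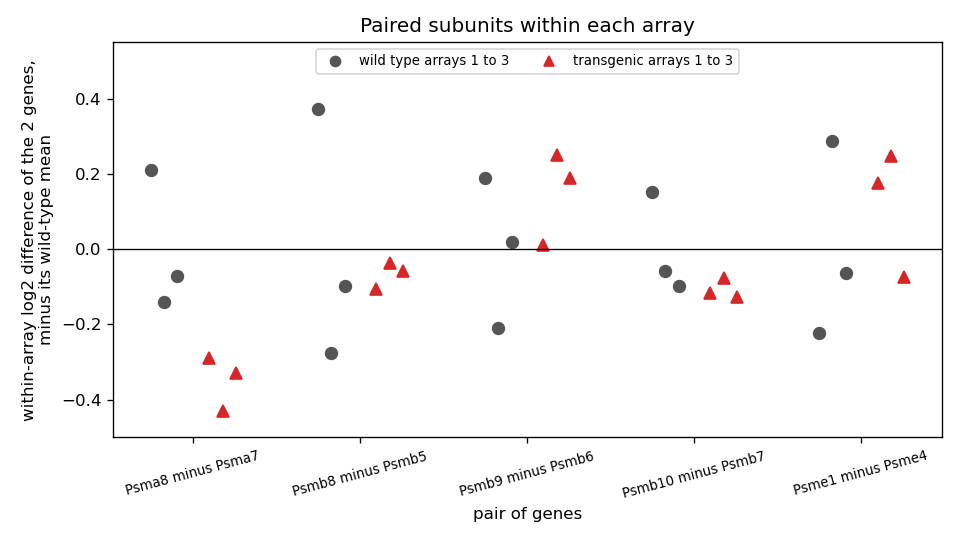
Within-array log2 difference of each pair of genes, shown relative to its wild-type mean (y axis), for the 5 pairs (x axis), with circles for wild-type and triangles for transgenic arrays. The Psma8 minus Psma7 triangles lie below all circles, and the other 4 pairs overlap.

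Immune subunits are carried by leukocytes and induced by interferon, so genes of both kinds were read beside them. Of 11 measured leukocyte and macrophage markers 10 were above 0, with a median of 0.13, and none passed. At an unadjusted limma p under 0.05 there were 3, beside 7.49% of all genes. Their mean log2 reading was 6.75 to 6.84 in wild-type and 6.92 to 6.94 in transgenic arrays, without overlap, and its part in the Psmb9 reading was not tested. Of 6 endothelial markers 5 were above 0, with a median of 0.22 (3 at an unadjusted limma p under 0.05, beside the same 7.49%, none passing). Their mean log2 reading was 5.50 to 5.59 in wild-type and 5.68 to 5.73 in transgenic arrays, also without overlap, and its part was not tested either. Of 5 measured Leydig cell markers 4 were above 0, with a median of 0.03, and 1 passed. That was Hsd3b1, an enzyme of steroid synthesis, which was higher by 1.48 (SE 0.13, limma adjusted p = 0.00109). Hsd17b3 read 0.91 (limma adjusted p = 0.146), while Cyp17a1, Star and Cyp11a1 read 0.03, 0.0067 and -0.06. Of 16 measured genes of antigen processing and the interferon response, 12 were above 0, with a median of 0.06, where 56.8% of all genes were above 0. None of the 16 passed and none had an unadjusted limma p under 0.05 in any direction. Gbp3, an interferon-induced GTPase, read 3.76, 3.78 and 3.79 in wild-type and 3.94, 3.96 and 3.94 in transgenic arrays (difference 0.17, SE 0.08, limma adjusted p = 0.785). It is a dim probe set whose groups did not overlap. Those of Ifit3 in the same list did not overlap either, a separation that 12.5% of all genes showed in either direction. B2m, the light chain of MHC class I, read 9.03, 9.18 and 9.23 and then 9.35, 9.85 and 9.12, with overlap (difference 0.29, SE 0.17, limma adjusted p = 0.847). Without transgenic replicate 2 the B2m difference was 0.088, and without replicate 3 it was 0.45.

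Psmb9 shares a stretch of chromosome 17 with Tap1, a subunit of the peptide transporter that supplies MHC class I. The genes are transcribed in opposite directions from starts 226 bases apart. The 225 bases between the starts are shown because both genes were measured, at chr17:34187331-34187555 of GRCm38.p6 on the Tap1 strand (RefSeq), with a CCAAT box and the GTCA core (here as its reverse complement) in capitals.
Psmb9-Tap1: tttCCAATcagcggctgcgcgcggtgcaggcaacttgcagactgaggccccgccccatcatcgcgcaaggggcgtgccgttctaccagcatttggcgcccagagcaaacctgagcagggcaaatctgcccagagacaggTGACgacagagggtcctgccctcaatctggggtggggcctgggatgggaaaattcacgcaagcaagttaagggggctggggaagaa
Tap1 read 6.72, 6.21 and 6.60 in wild-type and 6.30, 6.70 and 6.37 in transgenic arrays, a difference of -0.05 (SE 0.15, limma adjusted p = 0.986), beside 0.21 for Psmb9. In wild type replicate 2 both genes had their lowest wild-type reading, and in transgenic replicate 2 both had their highest transgenic reading. This order was not particular to the pair. Irf1, Irf9 and Irgm1 of the interferon list had it too, and Psmb8, Tap2, Ifit3 and Irf7 were also lowest in wild type replicate 2 among wild-type arrays. Irf8, Erap1, Nlrc5 and Tapbp of that list were instead highest there among wild-type arrays. Tap2, which lies in the same region and codes for the other subunit of the transporter, read 0.06 (SE 0.16).

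The constitutive 20S core did not pass in any of its 14 genes. All 7 alpha ring genes were above 0 (Psma1 to Psma7), from 0.0033 in Psma2 to 0.09 in Psma4, with a median of 0.06. In the beta ring 6 of 7 genes were above 0, from -0.08 in Psmb3 to 0.15 in Psmb5, with a median of 0.07. For each of the 14 the genotypes overlapped. The medians of both rings kept their sign after quantile normalization again (0.05 and 0.06) and median centring (0.04 and 0.04), but with wild type replicate 1 left out they were 0.03 and 0.0033. With the probe sets of a gene averaged, the alpha ring median was 0.0033.

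Psma4 had the smallest p in the alpha ring. It read 10.15, 10.25 and 10.22 in wild-type and 10.28, 10.22 and 10.39 in transgenic arrays (difference 0.09, SE 0.09, limma adjusted p = 0.951). Psma3 read 10.97, 11.03 and 11.09 and then 11.10, 11.06 and 11.13 (difference 0.07, SE 0.09). In both genes 2 of 3 transgenic readings were above every wild-type reading. Psmb4, a structural subunit of the beta ring, read 11.15, 11.31 and 11.17 and then 11.37, 11.27 and 11.28 (difference 0.10, SE 0.09, limma adjusted p = 0.945).

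The 19S particle had no passing gene among its 20. Of the 6 ATPases 3 were above 0 and 3 below, from -0.14 in Psmc6 to 0.08 in Psmc1, with a median of 0.01. Of the 14 Psmd genes, which hold the other subunits and the chaperones Psmd5, Psmd9 and Psmd10, 7 were above 0 and 6 below, from -0.11 in Psmd6 to 0.15 in Psmd13, with a median of 0.0033. Psmd10 (gankyrin, an assembly chaperone of the 19S base) had equal means of 8.16 in both genotypes. Both medians turned below 0 after median centring, at -0.01 and -0.02, so neither has a direction.

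Psmc6 read 9.21, 9.30 and 9.34 in wild-type and 9.23, 9.08 and 9.12 in transgenic arrays (difference -0.14, SE 0.09, limma adjusted p = 0.887). Psmc1 read 8.57, 8.93 and 8.77 and then 8.96, 8.88 and 8.66 (difference 0.08, SE 0.12). For Psmc6, 2 of 3 transgenic readings were below the wild-type range, while the readings of Psmc1 overlapped across most of their range. Psmd13, a lid subunit, read 8.79, 9.05 and 9.04 and then 9.18, 9.01 and 9.14 (difference 0.15, SE 0.10, limma adjusted p = 0.907). Psmd5, a chaperone that helps to assemble the 19S base, read 7.66, 8.08 and 7.78 and then 8.10, 7.91 and 7.94 (difference 0.14, SE 0.12, limma adjusted p = 0.935). In Psmd5 the readings of wild type replicate 2 and transgenic replicate 1 were nearly the same, and the groups overlapped.

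The activators that cap the core in place of the 19S particle also overlapped between genotypes. Psme4, which encodes PA200, read 11.68, 11.67 and 11.62 in wild-type and 11.61, 11.56 and 11.79 in transgenic arrays, a difference of -0.0033 (SE 0.09, 95% interval -0.22 to 0.21). Its next probe sets by brightness gave 0.05 and 0.04. Psme3, the nuclear activator PA28 gamma, read 10.61, 10.75 and 10.69 and then 10.53, 10.56 and 10.61 (difference -0.12, SE 0.09, limma adjusted p = 0.92). Its groups met at 10.61. The median of the 3 activators was -0.0033 and its sign changed among the alternatives, so it has no direction.

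Psme1, the interferon-inducible PA28 alpha, read 7.72, 8.22 and 7.82 in wild-type and 8.05, 8.07 and 7.98 in transgenic arrays (difference 0.11, SE 0.13, 95% interval -0.18 to 0.41). Psme1 minus Psme4 within arrays was -3.74 ± 0.26 and -3.62 ± 0.17 (SD, n = 3), a difference of 0.12 (exact permutation p = 0.7, 0.875 adjusted over the 5 pairs). It rested on single wild-type arrays, at 0.005 without replicate 1 and 0.26 without replicate 2, as did Psme1 itself, at 0.01 and 0.26. Psme1, like the core genes, was highest in wild type replicate 2 among wild-type arrays.

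The constitutive genes shared an order among the wild-type arrays. Of the 34 genes of the core and the 19S particle, 29 had their lowest wild-type reading in wild type replicate 1 and 28 their highest in wild type replicate 2. Over all genes the shares were 40.9% and 46.2%. Among the transgenic arrays, replicate 1 had the highest median deviation from the gene means in each constitutive group. The order of replicates 2 and 3 differed between groups. For replicates 1, 2 and 3 the deviation was 0.04, -0.0033 and -0.02 in the alpha ring and 0.04, 0.02 and 0.03 in the beta ring. It was 0.09, 0.02 and -0.11 in the ATPases and 0.12, -0.08 and -0.0092 in the Psmd genes. The order of single genes was counted in the wild-type arrays only. Wild type replicate 2 was above replicate 1 by a median of 0.18 over the 34 genes (range -0.16 to 0.55), beside 0.04 over all genes. Among the immune subunits, Psmb8 and Psmb9 were lowest in wild type replicate 2 and highest in replicate 1, and Psmb10 was highest in replicate 2. Without wild type replicate 2 the median difference of all 41 genes between genotypes was 0.088, and without wild type replicate 1 it was -0.017.

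**Figure D4:**
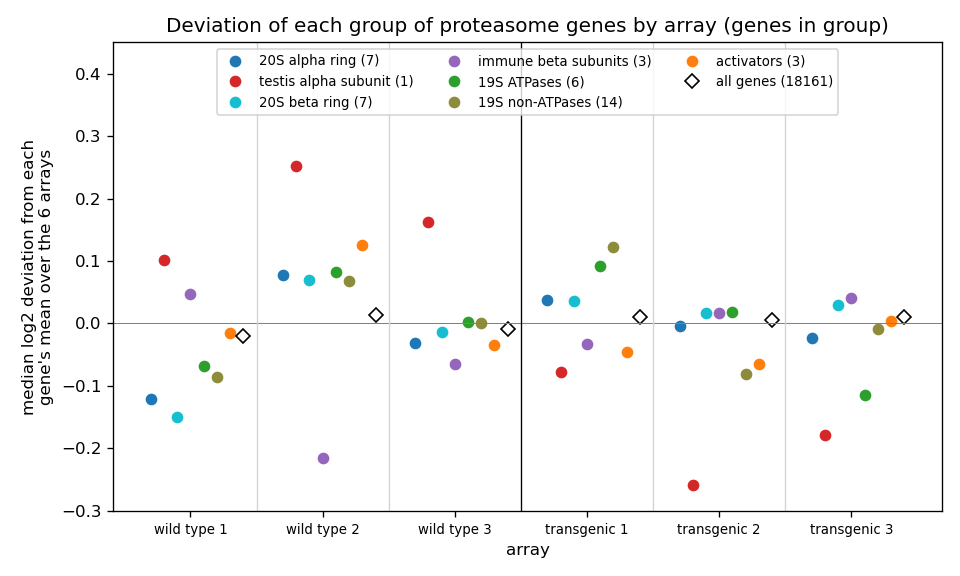
Median log2 deviation of each group of proteasome genes from each gene's mean over the 6 arrays (y axis), for each array (x axis), with the number of genes in the legend and all genes as open diamonds. The constitutive groups are below 0 in wild type 1 and above 0 in wild type 2, where the immune subunits are lowest, and Psma8 is high in all wild-type and low in all transgenic arrays.

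Promoter windows, from 250 bases before to 50 after a start, were at hand for 34 of the 41 genes (36 windows, RefSeq, GRCm38.p6). Psma8 is not among the 34, so its promoter was not searched. They were searched on both strands for 7 motifs, and the shares are a description. CGGAAG, the core of many ETS family sites, was in 20 of the 36 windows (55.6%) and in 16.9% of all 32851 windows. By role it was in 4 of 5 ATPase genes, 9 of 12 other 19S genes, 2 of 7 alpha ring genes, 2 of 4 beta ring genes and 2 of 3 activator genes, and in none of the windows of Psmb8, Psmb9 and Psmb10. The GTCA core bound by DREAM was in 88.9% of the windows and in 85.2% of all windows, those of Psmb9 and Psmb10 included and that of Psmb8 not. The longer TGACGTCA, the cAMP response element, which contains GTCA, was in 0 of 36 and in 1.79% of all.

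The other motifs were TGACNNNGC, of the kind used by the proteasome regulator Nfe2l1 (16.7% of the windows, 12.4% of all), CCAAT (36.1% and 37.4%), the core of the interferon-stimulated response element (11.1% and 3.44%) and the STAT-type TTCNNNGAA (5.56% and 8.3%). The interferon element was in none of the windows of Psmb8, Psmb9 and Psmb10. Of these genes, only Psmb8 had the STAT-type motif. To show the ETS core in place, the first gene of each constitutive group with the motif before its start is printed, with CGGAAG or its reverse complement in capitals, read along the gene.
Psma4 (chr9:54950742-54950777, plus strand): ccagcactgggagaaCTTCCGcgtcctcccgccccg
Psmb3 (chr11:97703236-97703271, plus strand): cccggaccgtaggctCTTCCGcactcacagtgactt
Psmc1 (chr12:100110087-100110122, plus strand): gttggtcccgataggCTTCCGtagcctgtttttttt
Psmd1 (chr1:86064532-86064567, plus strand): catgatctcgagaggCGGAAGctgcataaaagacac
The motif begins 183 bases before the start in Psmb3, 100 in Psmc1 and 72 in Psmd1. In Psma4 it begins 102 bases before the start of the window's transcript and 24 before the most upstream annotated start. The differences of these genes between genotypes were 0.09, -0.08, 0.08 and -0.10, and none passed.

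Of the 41 genes 22 have more than 1 probe set, and none of the 87 probe sets passed (4 at an unadjusted limma p under 0.05, beside 6.69% of all probe sets). Probe sets of 1 gene differed by over 0.3 in 6 genes, Psma1, Psma6, Psmd13, Psmd6, Psmd9 and Psme4. The lowest were a dim probe set of Psmd9 at -0.39 (4.44 ± 0.29 and 4.05 ± 0.07, SD, n = 3, limma adjusted p = 0.585) and a dim one of Psme4 at -0.28 (4.55 ± 0.08 and 4.27 ± 0.10, adjusted p = 0.516), while the brightest of these genes read -0.02 and -0.0033. Psmd13 ranged from -0.23 to 0.15 and Psmd6 from -0.11 to 0.21. Which transcript forms these probe sets match was not analysed here.

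Genes that assemble, escort or regulate the proteasome did not pass either. Of 24 such genes 21 were measured, 12 above 0 and 9 below, with a median of 0.02. Of the 21, 4 had an unadjusted limma p under 0.05, beside 7.49% of all genes. The groups did not overlap for Psmg4, Ube3a, Ecpas, Ube3c and Rad23b, a separation that 12.5% of all genes showed in either direction. Psmg4, a chaperone of alpha ring assembly, read 7.52, 7.86 and 7.67 in wild-type and 8.06, 8.13 and 7.97 in transgenic arrays, without overlap (difference 0.37, SE 0.11, limma adjusted p = 0.372). With its probe sets averaged the difference was 0.15 (limma adjusted p = 0.673). Ube3a, a ubiquitin ligase that binds the proteasome, read 9.77, 9.66 and 9.77 and then 9.45, 9.33 and 9.50, also without overlap (difference -0.31, SE 0.09, limma adjusted p = 0.383). This is the value of its brightest probe set, and the average over the probe sets of Ube3a gave -0.016 (limma adjusted p = 0.991). Pomp, which completes the core, read 0.05, and Nfe2l1, the factor that raises proteasome genes when the proteasome is inhibited, read -0.03 (limma adjusted p = 0.979 and 0.987).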

How the data were processed

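Per the labels, RNA of 3 wild-type and 3 transgenic testes was hybridised to 1 array each. The submitters' processing notes name RMA and the affy package. The deposited table holds RMA values in log2; its quantile step forces arrays towards 1 distribution, which hides any change common to most transcripts. Of 45101 probe sets, 64 controls were left out and 45037 tested, with no filter. Names come from the platform annotation (34945 probe sets with 1 gene; 34741 matched by gene ID to RefSeq GRCm38.p6). Each probe set was fitted in R 4.3.3 using limma 3.58.1 (eBayes, two-sided, Benjamini-Hochberg), and within-array contrasts were tested with exact permutation tests (scipy 1.17.1), adjusted over 5 pairs since the planned Psme2 pair had no value; the fit was checked on simulated data. The members and lists were chosen with earlier results of these data known. Named in full are Psma8, the immune subunits, their partners, the activators and the 2 genes of smallest p in each group (of related genes, too); Tap1, Tap2, Pomp, Nfe2l1, Sycp1 and Ldhc were named after their values were seen. The submitters call the replicates independent; their number, 3 per group, limits the precision.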

Additional observations from a re-analysis of the deposited data

How the results depend on the processing

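The count of passing probe sets over the whole table, 200 in the fit reported, was 306 with a trended and robust variance, 317 at an adjusted p under 0.10, 4160 with array weights and 18 with the Gapdh difference as a covariate, and from 70 to 429 with 1 array left out (429 without wild type replicate 2, 70 without wild type replicate 3, 71, 75 and 73 without transgenic replicates 1, 2 and 3). The array weights came with convergence warnings and put 19.1 on wild type replicate 3 against 0.237 on replicate 2. The count of passing members was 1 (Psma8) with a trended variance and 1 with array weights, and 0 in the other settings; it was 0 with every array left out in turn. Of the related genes 5 passed with array weights and 0 in the others, the left-out arrays included. Psma8 was below 0 in 14 of 14 alternatives, the Gapdh covariate apart, from -0.39 to -0.30. Of the 18 members named in full, 9 changed sign in at least 1 alternative, none of them past the threshold.

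The replicate number as a block gave 117 probe sets and 0 members. Same-numbered arrays correlated at -0.32, -0.07 and -0.01 in their deviations from the group means, so the numbers do not pair the samples. With the Gapdh covariate, added after the data were seen, the median difference went to 0.18 over all members, 0.26 in the alpha ring, 0.23 in the beta ring, 0.18 in the ATPases, 0.16 in the other 19S genes and -0.089 in the activators, and that of the immune subunits turned from 0.08 to -0.049 (Psmb9 -0.049, Psmb8 -0.19); the cause was not tested. With single arrays left out, the activator median ran from -0.072 to 0.043. Without probe sets ending in _x_at, _s_at or _a_at, the members Psmb5, Psmb8, Psmd4, Psmd10, Psmd12 and Psmd14 have no value. The same holds for B2m and Gbp3.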
